A study of Callithrix jacchus with 54 samples.

Results

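The HOX cluster genes were followed while embryonic stem cells of the common marmoset (cjESCs) were turned into primordial germ cell-like cells (PGCLCs). The members were the 30 rows of the 14812-gene expression table whose symbol is HOX followed by a cluster letter and a paralog number. They comprised 11 HOXA genes, 10 HOXB genes (HOXB1 to HOXB9 and HOXB13) and 9 HOXC genes (HOXC4 to HOXC6 and HOXC8 to HOXC13). The HOXD cluster was not analysed here. Levels are given in TPM, a share of all transcripts in a library that accounts for transcript length and so allows genes to be set beside each other. In all, 26 members reached 1.5 on the log2(TPM + 1) scale in at least 1 library and were tested among 11197 genes. HOXA3, HOXB1, HOXC5 and HOXC12 stayed below that level in every library.

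HOX genes encode homeodomain transcription factors that give cells their position along the head-to-tail axis and in the limbs and reproductive tract. They lie in clusters, and genes at the 3' end (low paralog numbers) are as a rule used earlier and further forward than those at the 5' end (high numbers). WNT signaling, CDX factors and retinoic acid switch them on in the early embryo, and Polycomb complexes keep them silent in pluripotent cells. Primordial germ cells first appear in the posterior epiblast in mice and in the incipient amnion in cynomolgus monkeys. Silence of somatic genes such as the HOX genes is a known feature of their specification.

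All cells came from the line CMES40 with the reporters BLIMP1-tdTomato and NANOS3-eGFP, and RNA of 27 conditions was sequenced in 2 replicates each. The transgenic line also carried rtTA, tetO-BLIMP1, SOX17-GR and DD-TFAP2C, was kept in DK20FA medium and was sampled as cjESCs and after 12, 24, 48 and 96 h in BLSE, SOX17 + BLSE or SOX17 + LSE. BLSE stands for BMP4, LIF, SCF and EGF, LSE lacks BMP4, and dexamethasone was the agent that induced SOX17, so that SOX17 and dexamethasone cannot be told apart. The line labelled wild type, without these transgenes, was kept in PESFA medium and sampled as cjESCs, after 24 h of pre-treatment with IM12 (a WNT agonist) and activin A, and then after 12, 24, 48 and 96 h in BLSE with IWR1 (a WNT inhibitor), without or with BMS493 (an inverse agonist of the retinoic acid receptors, written BMS below). Cells of day 6 in BLSE + IWR1 were also sampled, and tdTomato-positive cells were recovered on days 20, 40 and 70 from xrOvaries, which are aggregates of such PGCLCs with gonadal somatic cells of mouse fetuses whose medium held retinoic acid for the first 2 days. Every differentiation medium held a ROCK inhibitor, and all cjESCs were grown on mouse embryonic fibroblasts. The cjESCs and pre-treated cells were sorted for TRA-1-60, the cells at 12, 24 and 48 h and those in BLSE at 96 h were taken unsorted, and all other samples were sorted for tdTomato. Each line descends from picked colonies, so that clone, medium and transgenes cannot be told apart between the 2 lines.

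The table gives no read counts, so the depth behind each value is unknown, and a gene listed at 0 may be expressed below what the library could detect. Summed TPM per library ran from 790300 to 839203, and 10146 to 12688 genes were above 0. No pair of libraries held identical values, and replicates correlated on the log2 scale at r between 0.977 and 0.994 across genes. As a check of the labels, SOX17 ran from 34.6 to 64.6 TPM over the BLSE libraries, and with its induction from 164 TPM at the first time to 692 TPM at the last. The cjESC and pre-treated libraries in PESFA stood apart in 9 fibroblast genes, whose summed TPM was 1759 to 4768 there and 21.3 to 319 in the other libraries. In the RefSeq annotation of another assembly (calJac240_pri), all 30 members were found, and the spans of HOXA3, HOXA4 and HOXA5, of HOXB3 and HOXB4, and of HOXC4 with HOXC5, HOXC6, HOXC8 and HOXC9 overlapped. Estimated levels of these 10 members may therefore share reads.

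Most members were highest either in BLSE without SOX17 or in cjESCs in PESFA. By the mean of the 2 libraries, 17 members peaked in BLSE, 11 of them at 96 h and 6 at 48 h, and 9 members peaked in cjESCs in PESFA. The other members were highest elsewhere, namely HOXB13 and HOXC13 in SOX17 + BLSE, HOXA4 in the day 70 xrOvary and HOXB1, with at most 0.9 TPM in any library, in BLSE + IWR1. The marker genes HOXA10, HOXA11 and HOXB2 reached 102, 90.6 and 35.6 TPM.

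**Figure D1:**
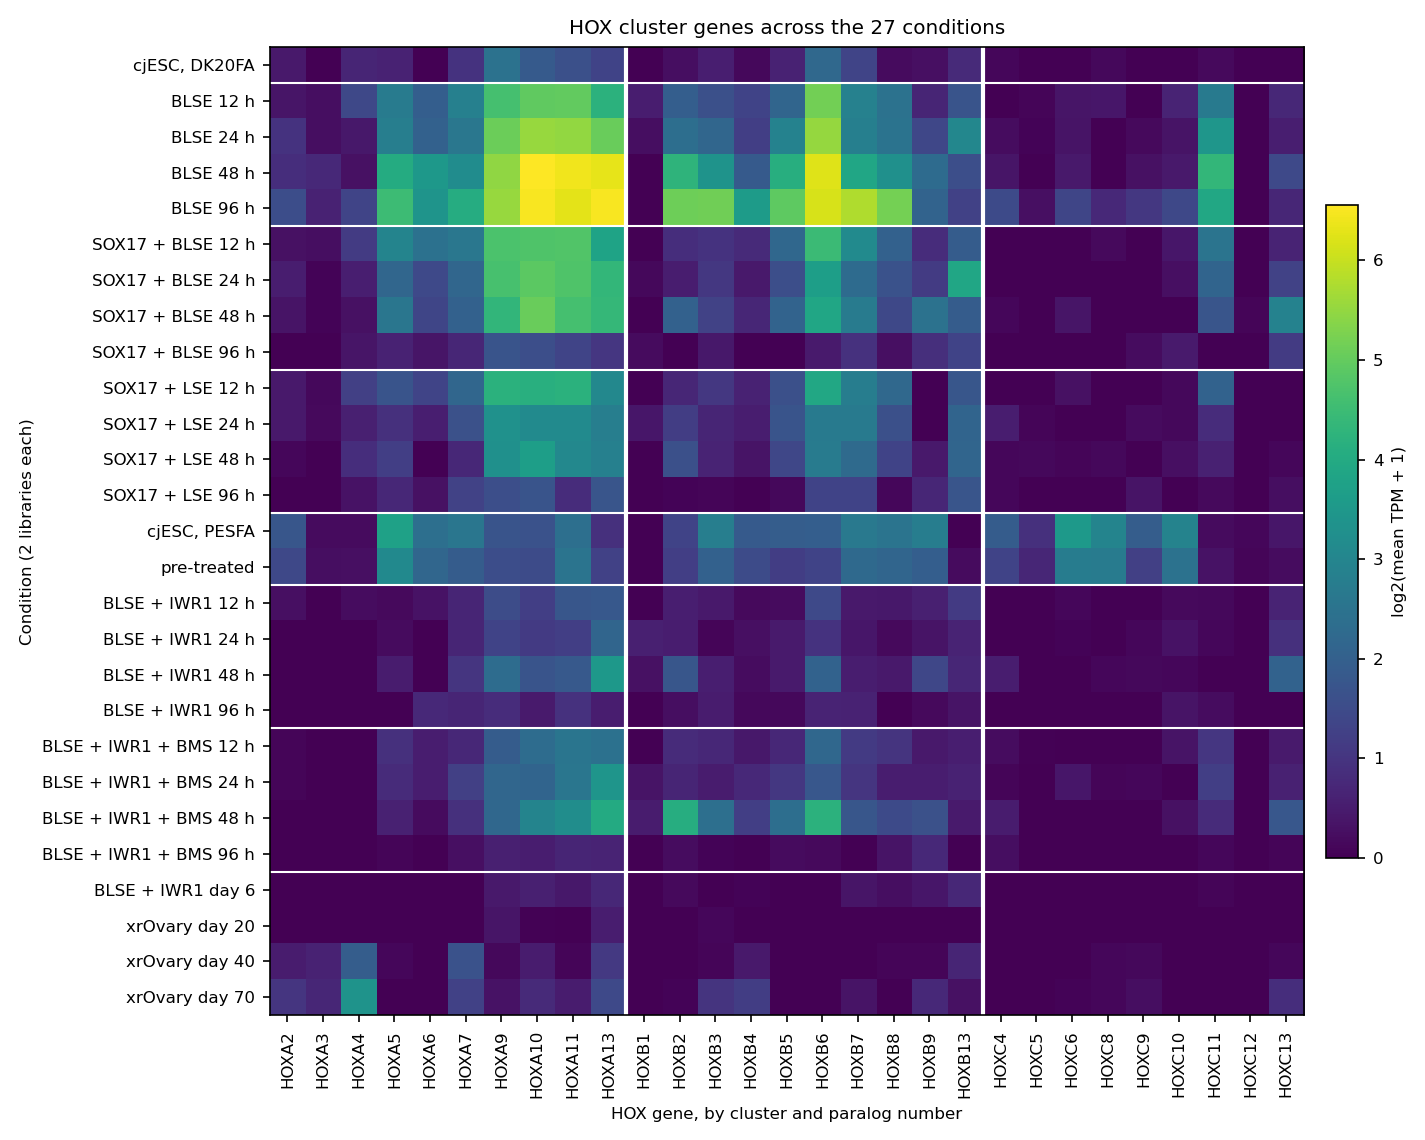
Heat map of log2(mean TPM + 1) of HOX genes (columns, in order of cluster and paralog number, clusters parted by white lines) in the 27 conditions (rows, mean of 2 libraries each). The brightest block is HOXA9 to HOXA13 and HOXB6 in BLSE, to which HOXB2 to HOXB5, HOXB7 and HOXB8 are added by 96 h, whereas HOXC4 to HOXC10 are visible chiefly in cjESCs in PESFA and in pre-treated cells.

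To see how the clusters responded to BMP4, LIF, SCF and EGF alone, the BLSE time course was compared with cjESCs in DK20FA. HOX RNA was higher at the first sampled time and rose further, with the 5' HOXA genes and HOXB6 ahead of the remaining HOXB genes. Summed over the 30 members, the libraries held 42.6 and 62.2 TPM in cjESCs, 187 and 255 TPM at 12 h, 321 and 313 TPM at 24 h, 555 and 596 TPM at 48 h, and 731 and 717 TPM at 96 h. In such bulk samples, more expressing cells and more RNA per cell cannot be told apart. A member was called when it differed by more than 4-fold with a Benjamini-Hochberg adjusted p under 0.01 in limma and a mean log2(TPM + 1) above 1.5 in the libraries compared. At 12 h 6 of the 26 tested members were called higher (0.607% of all genes tested were), at 24 h 9 (0.714%), at 48 h 14 (1.71%) and at 96 h 15 (2.82%), and none was called lower. By adjusted p alone, 14, 16, 18 and 22 members rose (4.23%, 5.47%, 9.75% and 12.4% of all genes). Without replicate 2 of BLSE at 24 h, the count of 9 members became 5. The median log2 difference at 96 h was 3.28 over the 26 members and -0.08 over all genes tested.

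The 5' HOXA genes, whose products pattern the trunk end, the distal limb and the uterus, started low, and HOXA10, HOXA11 and HOXA13 were the 3 highest members at 48 h. HOXA10 was at 1.99 and 3.2 TPM in the cjESC libraries, 26.2 and 33.8 TPM at 12 h, 47.0 and 43.9 TPM at 24 h, 85.0 and 102 TPM at 48 h and 88.5 and 91.0 TPM at 96 h. No BLSE library overlapped with cjESCs, and the log2 difference, on the log2(TPM + 1) scale used throughout, was 3.12 ± 0.24 (SE, n = 2 per condition) at 12 h (adjusted p = 1.42e-11) and 4.68 ± 0.24 at 96 h (adjusted p = 5.90e-18). HOXA11 went from 1.92 and 2.18 TPM to 28.0 and 33.7 TPM at 12 h and to 79.3 and 74.8 TPM at 96 h (log2 difference 4.68 ± 0.27, adjusted p = 1.24e-16). HOXA13, the most 5' gene of the cluster, went from 1.14 and 1.85 TPM to 14.0 and 21.0 TPM at 12 h and 93.3 and 84.1 TPM at 96 h. Its log2 difference of 5.18 ± 0.29 at 96 h (adjusted p = 5.87e-17) was the largest of the 22 members that rose. HOXA9 was already at 2.63 and 6.46 TPM in cjESCs and reached 48.7 and 43.7 TPM.

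The HOXA genes of lower paralog number differed from one another. HOXA2, HOXA3 and HOXA4 together held 4.45 and 3.62 TPM at 96 h, and of the tested HOXA2 and HOXA4 only HOXA2 passed there (adjusted p = 0.00244), which was lost without replicate 1 of the cjESCs or either BLSE library at 96 h. HOXA5, HOXA6 and HOXA7 are central members that pattern the thorax. HOXA5 was at 4.41 and 6.81 TPM at 12 h and 21.4 and 22.1 TPM at 96 h. HOXA6 was listed at 0 in both cjESC libraries and at 9.68 and 9.19 TPM at 96 h.

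Most of the HOXB cluster rose later. HOXB2, which acts in the hindbrain, was at 0 and 0.38 TPM in cjESCs, 2.37 and 3.36 TPM at 12 h, 4.46 and 3.96 TPM at 24 h, 20.8 and 16.1 TPM at 48 h and 35.6 and 31.6 TPM at 96 h (log2 difference 4.88 ± 0.34, adjusted p = 2.39e-14). HOXB7 was at 1.61 and 1.43 TPM in cjESCs, 12.0 and 15.3 TPM at 48 h and 54.9 and 52.6 TPM at 96 h, and HOXB8 reached 34.0 and 37.4 TPM. HOXB3 reached 39.3 and 29.6 TPM at 96 h, HOXB5 28.7 and 30.8 TPM and HOXB4 10.5 and 11.9 TPM. HOXB6 departed from its neighbours: it was at 27.8 and 42.3 TPM at 12 h, when HOXB5 was at 1.97 and 4.77 TPM and HOXB7 at 4.41 and 8.34 TPM, and it stood at 76.6 and 72.7 TPM at 48 h and 66.4 and 74.0 TPM at 96 h. HOXB9 stayed at or below 5.10 TPM, and HOXB13, the 5'-most gene of the cluster, peaked at 24 h with 6.31 and 8.17 TPM before returning to 2.02 and 0.79 TPM at 96 h. Its call at 24 h (log2 difference 2.25 ± 0.48, adjusted p = 6.66e-04) was lost without replicate 1 of the cjESCs or replicate 2 of BLSE at 24 h.

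To compare timing, the mean level at an earlier time was taken in percent of that at 96 h for the 16 members whose mean at 96 h was at least 5 TPM. At 12 h HOXA9, HOXB6, HOXA11, HOXA7 and HOXC11 were at 51.1%, 49.9%, 40.0%, 39.8% and 37.9% of their 96 h mean, HOXA10 at 33.4% and HOXA6 at 30.5%. HOXB2, HOXB3, HOXB4, HOXB5, HOXB7 and HOXB8 were at 5.91% to 13.3%. At 48 h HOXB3, HOXB4, HOXB7 and HOXB8 were still at 23.2% to 27.2%, while HOXA9 to HOXA13 and HOXB6 had come to 89.5% to 111%. The order did not follow paralog number within the HOXA cluster, where HOXA13 at 19.7% and HOXA5 at 25.8% were the lowest at 12 h.

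Of the HOXC cluster, HOXC11 was the only member to be called in BLSE. It was at 0 and 0.23 TPM in cjESCs, 4.69 and 6.04 TPM at 12 h, 15 and 23.5 TPM at 48 h and 13.1 and 15.3 TPM at 96 h (log2 difference 3.77 ± 0.25, adjusted p = 4.84e-15). HOXC13, at the 5' end of the cluster, reached 1.91 and 1.57 TPM at 48 h, and HOXC12 was listed at 0 in all BLSE libraries. HOXC4 to HOXC10 together held 0.87 and 1.63 TPM at 48 h and 4.37 and 9.62 TPM at 96 h. By adjusted p alone, and below 4-fold, HOXC13 was higher than in cjESCs at 48 h, and HOXC4, HOXC6, HOXC9 and HOXC10 at 96 h. HOXC9 (0.26 and 1.9 TPM) and HOXC10 (0.21 and 3.11 TPM) were uneven between the libraries at 96 h.

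**Figure D2:**
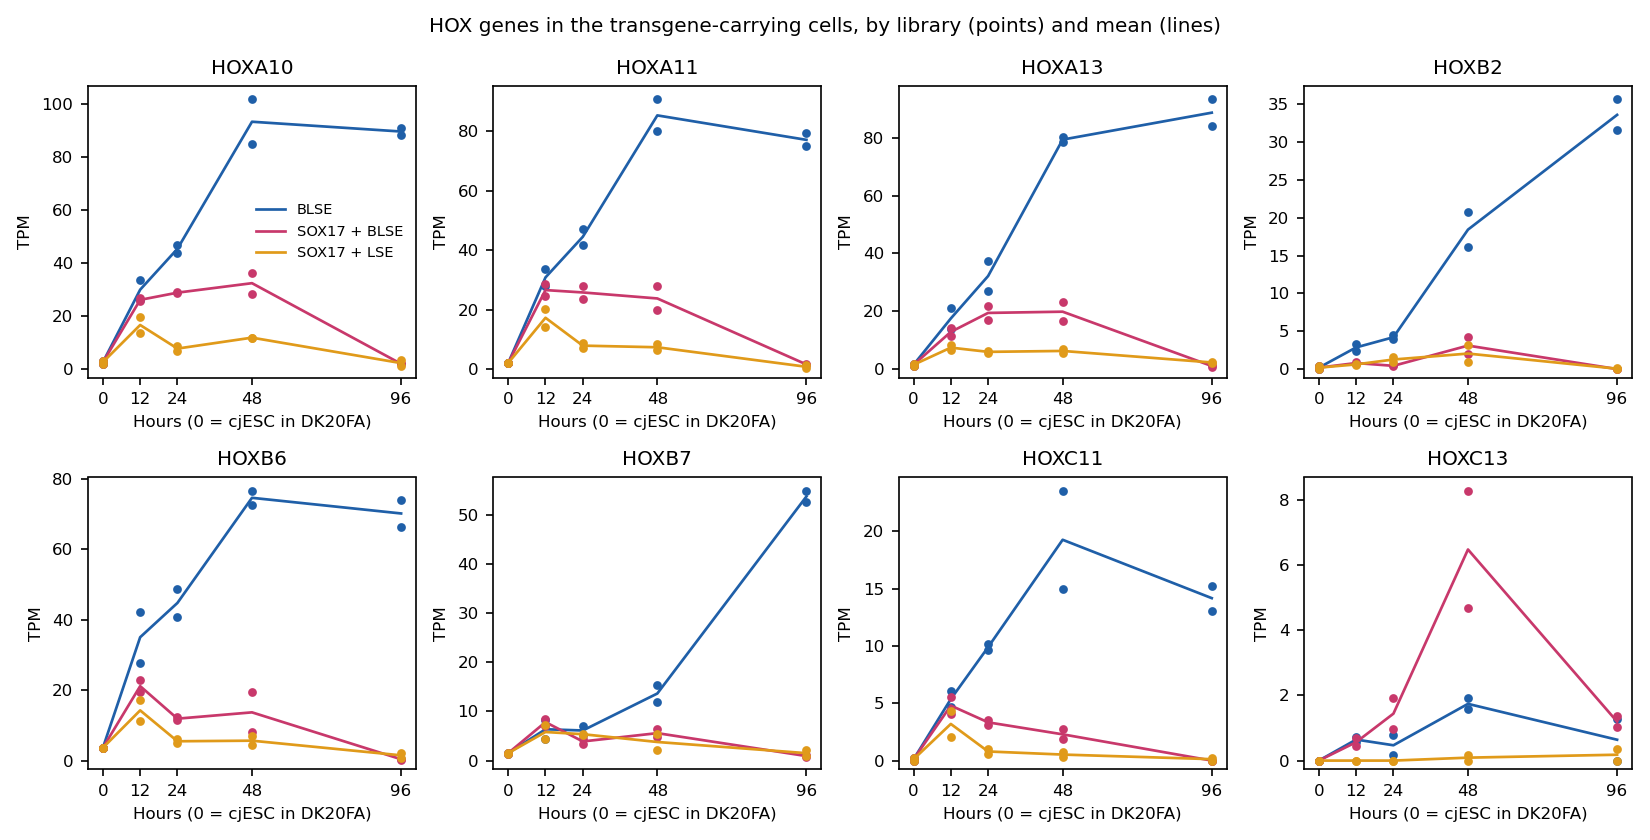
TPM of 8 HOX genes against hours of culture in BLSE (blue), SOX17 + BLSE (pink) and SOX17 + LSE (orange), with cjESCs in DK20FA shared as hour 0; points are the 2 libraries of a condition and lines join their means. HOXA10, HOXA11, HOXA13, HOXB6 and HOXC11 climb in BLSE from 12 h and HOXB2 and HOXB7 after 24 h, the SOX17 courses lie at or below 3.34 TPM at 96 h, and HOXC13 reaches 4.68 and 8.27 TPM in SOX17 + BLSE at 48 h.

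Next, SOX17 + BLSE was compared with BLSE at each time to see what SOX17, the factor that starts the germ cell programme in primates, did to the clusters. None of the 5' HOXA genes passed the test at 12 h, and all of HOXA9 to HOXA13 were lower in SOX17 + BLSE at 48 h. No member was called at 12 h (0.161% of all genes were called) or 24 h (0.518%), 8 of 26 were called lower at 48 h (0.831%) and 16 at 96 h (3.94%), and none was called higher. By adjusted p alone, 1 member was lower at 12 h (0.795% of all genes), 5 at 24 h (2.01%), 14 at 48 h (6.37%) and 21 at 96 h (16.1%), and 1 was higher at 48 h (10.3%). At unadjusted p under 0.05, limma had 5 members lower at 12 h, and 12 lower and 1 higher at 24 h. The median log2 difference at 96 h was -3.74 over the 26 members and 0.24 over all genes. The count of 8 at 48 h rested on single libraries, since it was 2 without replicate 2 of SOX17 + BLSE and 5 without replicate 1 of BLSE, and without replicate 2 of SOX17 + BLSE at 24 h 1 member was called there.

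HOXA10 was at 25.6 and 26.8 TPM with SOX17 at 12 h, as against 26.2 and 33.8 TPM without, and at 36.4 and 28.6 TPM against 85.0 and 102 TPM at 48 h (log2 difference -1.50 ± 0.24, adjusted p = 8.96e-06). HOXA11 and HOXA13 showed the same order at 48 h, where SOX17 + BLSE held 27.8 and 19.7 TPM of HOXA11 and 23.2 and 16.5 TPM of HOXA13, with log2 differences of -1.82 ± 0.27 and -1.97 ± 0.29. HOXA9 differed by -1.15 ± 0.32 at 48 h (adjusted p = 0.00579), less than 4-fold, and did not pass the adjusted p when any single one of the 4 libraries was left out. Thus the 5' HOXA genes were present at up to 36.4 TPM in SOX17 + BLSE and also lay above cjESCs, where at 48 h HOXA10, HOXA11 and HOXA13 were called higher (3 of 26 tested, against 2.02% of all genes). That count was 6 without either cjESC library and 5 without replicate 2 of SOX17 + BLSE at 48 h, and by adjusted p alone 13 members were higher (15.8%) and 1 lower (10.6%).

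Of the 8 members called lower at 48 h, 5 were HOXB genes. HOXB2 was at 0.37 and 0.49 TPM in SOX17 + BLSE at 24 h against 4.46 and 3.96 TPM in BLSE (log2 difference -1.86 ± 0.34, adjusted p = 1.69e-04) and at 4.21 and 2 TPM against 20.8 and 16.1 TPM at 48 h. HOXB6 was at 11.6 and 12.3 TPM against 40.9 and 48.7 TPM at 24 h, and at 19.4 and 7.98 TPM against 76.6 and 72.7 TPM at 48 h (log2 difference -2.48 ± 0.29, adjusted p = 2.89e-08). HOXB3, HOXB5 and HOXB8 were also called lower at 48 h, and HOXB4 passed the adjusted p alone. HOXC11 ended at 2.73 and 1.85 TPM against 15 and 23.5 TPM at 48 h (log2 difference -2.60 ± 0.25, adjusted p = 3.55e-10). HOXC13, the 5'-most HOXC gene, with a known role in hair and nails, went the other way: it was at 4.68 and 8.27 TPM with SOX17 and at 1.91 and 1.57 TPM without (log2 difference 1.41 ± 0.31, adjusted p = 6.38e-04). This difference was also below 4-fold, and it did not pass the adjusted p without replicate 2 of either condition. HOXB13 was at 15.9 and 11.6 TPM in SOX17 + BLSE at 24 h, its highest level in the series, against 6.31 and 8.17 TPM in BLSE, a difference that did not pass the test.

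At 96 h the sorted SOX17 + BLSE cells held 14.8 and 15.1 TPM of HOX RNA in all, and no member exceeded 3.03 TPM. HOXA10 was at 2.21 and 1.75 TPM against 88.5 and 91.0 TPM in BLSE (log2 difference -4.93 ± 0.24, adjusted p = 5.56e-19), HOXA13 at 0.72 and 1.41 TPM against 93.3 and 84.1 TPM, and HOXB2 was listed at 0 in both libraries. Against cjESCs in DK20FA, 1 member was called in these cells and 1 in SOX17 + LSE at 96 h (3.39% and 1.95% of all genes were called lower). HOXB6 was lower in both by adjusted p alone (17.6% and 12.5%), and HOXC13 was higher in SOX17 + BLSE (25.6%). The BLSE cells at 96 h were unsorted and the SOX17 + BLSE cells were tdTomato-positive, so that at this time the sort and SOX17 cannot be told apart. Whether the effect at 48 h differed from that at 12 h, both in unsorted cells, was tested as a difference of effects, which 6 members passed (2.46% of all genes).

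BMP4 was assessed by comparing SOX17 + BLSE with SOX17 + LSE. BMP4 went with higher 5' HOXA genes at 24 and 48 h, at sizes below the 4-fold criterion. No member was called at 12, 24, 48 or 96 h (0.0893%, 0.214%, 1.02% and 0.768% of all genes were). By adjusted p alone, 7 members were higher at 24 h (1.56% of all genes) and 8 at 48 h (4.61%), and none passed at 12 or 96 h (0.277% and 7.11% in either direction). At unadjusted p under 0.05, limma had 8 members higher at 12 h, 11 higher and 1 lower at 24 h, 13 higher and 1 lower at 48 h, and 2 higher and 3 lower at 96 h. HOXA10 was at 28.7 and 29.1 TPM with BMP4 and 6.66 and 8.84 TPM without at 24 h (log2 difference 1.78 ± 0.24, adjusted p = 3.96e-06), and at 36.4 and 28.6 TPM against 11.9 and 11.9 TPM at 48 h. HOXA11 and HOXA13 differed by 1.56 ± 0.27 and 1.51 ± 0.29 at 48 h. HOXC13 was at 0.18 and 0 TPM without BMP4 at 48 h and at 4.68 and 8.27 TPM with it, the largest log2 difference of the comparison at 2.74 ± 0.31 (adjusted p = 3.14e-08), though its mean level was below the call's threshold. HOXC13 was also the 1 member whose BMP4 effect differed between 48 and 12 h (1.26% of all genes). Without replicate 1 or replicate 2 of SOX17 + LSE at 48 h, 1 and 2 members were called. Even without BMP4, HOXA10 at 11.9 and 11.9 TPM was above cjESCs at 48 h (log2 difference 1.86 ± 0.24, adjusted p = 3.15e-07). No member was called there (1.46% of all genes were, and 9 members were higher and 1 lower at unadjusted p under 0.05), although 1 was called without replicate 2 of the cjESCs. The adjusted p alone was passed by 4 members that were higher and by 1 that was lower (8.39% and 5.11%).

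The cjESCs themselves differed between the 2 lines and media. In PESFA, HOXA5, HOXB3, HOXB9 and HOXC6 were called higher (1.45% of all genes) and 1 member lower (0.589%) than in DK20FA, and by adjusted p alone 14 members were higher (8.09%) and 1 lower (8.73%). These 5 calls became 9 without either library in DK20FA, 2 without replicate 1 in PESFA and 3 without replicate 2. Among the 14 members higher by adjusted p alone was HOXC4, at 3.83 and 1.75 TPM in PESFA, which reached the filter level in no other condition. It was thus tested only through the group where it was high, so that its passing adds no support. HOXA5 was at 15.7 and 9.29 TPM against 0.47 and 0.62 TPM (log2 difference 3.09 ± 0.30, adjusted p = 6.26e-10). HOXC6 was at 16.5 and 4.70 TPM, HOXC10 at 9.22 and 3.96 TPM and HOXC8 at 9.93 and 3.75 TPM, and in DK20FA HOXC6 and HOXC10 were listed at 0 in both libraries. By contrast, HOXA10 (2.46 and 1.78 TPM), HOXA13 (1.06 and 0.70 TPM) and HOXB6 (2.79 and 2.97 TPM) in PESFA did not differ from DK20FA by the test.

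HOXC4 to HOXC10 were highest in the libraries with the most fibroblast RNA. Summed TPM of HOXC4 to HOXC10 was 44.99 and 16.1 in cjESCs in PESFA and 13.4 and 25.3 in pre-treated cells, and that of the 9 fibroblast genes 2987 and 1759, and 2515 and 4768. Within each condition the library with more fibroblast RNA thus had more HOXC RNA. Between the conditions the order was the reverse. Pre-treated cells had the higher mean of fibroblast RNA (3642 against 2373 TPM) and the lower mean of HOXC4 to HOXC10 (19.4 against 30.5 TPM). COL1A1, a fibroblast collagen, was at 1598 and 878 TPM in PESFA and at 41.8 and 83.6 TPM in DK20FA. All 9 measured fibroblast genes were at 1 TPM or more in both PESFA libraries, and 8 of the 9 were in both DK20FA libraries. BLSE at 96 h held 4.37 and 9.62 TPM of HOXC4 to HOXC10 with 249 and 214 TPM of fibroblast genes. HOXA5, HOXB3 and HOXB9, which were also called higher in PESFA, had means of 21.7, 34.4 and 3.2 TPM in BLSE at 96 h. The cells had been grown on mouse embryonic fibroblasts. Whether RNA of such cells gave the HOX values of cjESCs in PESFA and of pre-treated cells was not tested.

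**Figure D3:**
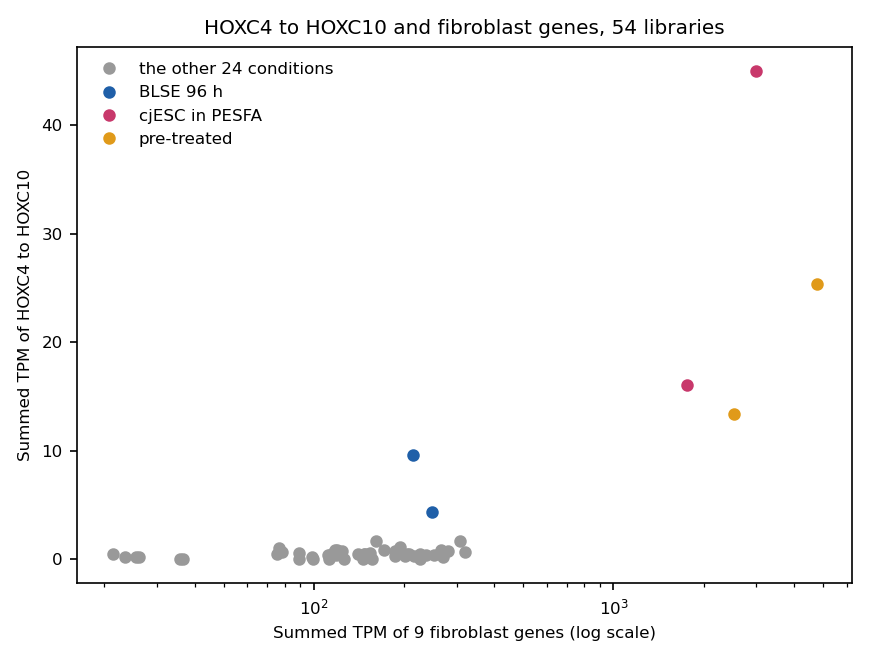
Summed TPM of HOXC4 to HOXC10 (vertical axis) against summed TPM of 9 fibroblast genes (horizontal axis, log scale), 1 point per library, 54 libraries. The 2 cjESC libraries in PESFA and the 2 pre-treated libraries lie to the right, at 1759 TPM or more of fibroblast RNA and 13.4 TPM or more of HOXC RNA, and both BLSE libraries at 96 h lie above the remaining ones.

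After the pre-treatment with IM12 and activin A, no member was called against cjESCs in PESFA (0.0357% of all genes were), and none passed the adjusted p alone (0.304%), while 8 were lower at unadjusted p under 0.05 in limma. HOXA5 was at 4.47 and 10.95 TPM, HOXC6 at 3.48 and 7.95 TPM, and HOXA10 at 1.59 and 2.04 TPM.

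In BLSE + IWR1, the condition developed to obtain PGCLCs without transgenes, HOX levels stayed low throughout. From 12 to 48 h, no member exceeded 10.95 TPM in any library, and at 96 h no member was at 1 TPM in both libraries. HOXA13 had the highest mean at 12, 24 and 48 h and was at 2.97 and 2.04 TPM, 2.98 and 3.89 TPM, and 9.83 and 10.95 TPM, then at 0.14 and 0.72 TPM at 96 h. Its level at 48 h lay above that of pre-treated cells (log2 difference 2.27 ± 0.29, adjusted p = 1.23e-07), the 1 member called higher (1% of all genes). HOXA5 was called lower at 48 h (1.48% of all genes) and 96 h (3.72%), with a log2 difference of -3.02 ± 0.30 at 96 h (adjusted p = 1.78e-10). These counts of 2 and 1 ranged from 1 to 5 and from 0 to 4, being 1 without replicate 2 of the pre-treated cells and 5 without either 48 h library in the one case, and 0 without either pre-treated library and 4 without either 96 h library in the other. By adjusted p alone 2 members were higher at 48 h (9.98% of all genes), and 13 were lower at 48 h and 18 at 96 h (9.27% and 17.4%), including HOXC4, HOXC6, HOXC8, HOXC9 and HOXC10, for which the fibroblast values of the pre-treated cells given above apply. Set against BLSE + IWR1 at 12 h instead, a comparison added after the data were seen, no member was called at 48 or 96 h (0.536% and 4.72% of all genes were, and 8 and 6 members passed an unadjusted p under 0.05). There, HOXA13 and HOXC13 rose at 48 h by adjusted p alone (4.02%), and 4 members fell at 96 h (15.6%), HOXA10, HOXA11 and HOXA13 among them.

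Side by side with BLSE at the same hours, the BLSE + IWR1 cells had 8 members called lower at 12 h (1.22% of all genes), 10 at 24 h (1.24%), 15 at 48 h (1.35%) and 16 at 96 h (4.72%), and by adjusted p alone 17, 17, 16 and 22 (7.92%, 6.51%, 10% and 17%). Without either BLSE library at 24 h, 6 members were called in place of 10. At 48 h HOXA10 was at 2.36 and 2.15 TPM with IWR1 and 85.0 and 102 TPM without (log2 difference -4.85 ± 0.24, adjusted p = 2.93e-17), and HOXB2 at 3.27 and 1.51 TPM against 20.8 and 16.1 TPM. HOXA13 had the smallest difference among the 5' HOXA genes at 48 h (-2.82 ± 0.29). IWR1, the line, the medium, the pre-treatment and, at 96 h, the sort all differed between these conditions and cannot be told apart. The comparisons with SOX17 + BLSE and with BLSE + IWR1 share the BLSE libraries.

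The effect of blocking retinoic acid receptors was read from BLSE + IWR1 with and without BMS. At 48 h HOXB2 to HOXB6, HOXA10 and HOXA11 were higher with the inverse agonist, and at 96 h no member passed the test. HOXB2 and HOXB6 were called higher at 48 h (0.125% of all genes), 7 members were higher by adjusted p alone (2.87%), and none was lower. HOXB2 was at 6.84 and 24.9 TPM with BMS and 3.27 and 1.51 TPM without (log2 difference 2.12 ± 0.34, adjusted p = 6.57e-05). HOXB6 was at 13.3 and 22.0 TPM against 3.70 and 2.63 TPM (log2 difference 2.14 ± 0.29, adjusted p = 5.78e-06). For both genes the groups did not overlap, but the 2 libraries with BMS were far apart for HOXB2, and no member was called without replicate 2 of either condition. HOXB3 was at 6.06 and 2.46 TPM against 0.58 and 0.37 TPM, and HOXB5 at 2.66 and 5.71 TPM against 0.60 and 0.19 TPM. HOXA10 was at 7.50 and 5.97 TPM against 2.36 and 2.15 TPM (log2 difference 1.24 ± 0.24, adjusted p = 6.73e-04), and HOXA11 at 9.66 and 6.78 TPM against 2.92 and 2.15 TPM. HOXA13, at 12.96 and 17.1 TPM against 9.83 and 10.95 TPM, did not pass the test. At 12, 24 and 96 h no member was called (0%, 0.00893% and 0.0357% of all genes were) or passed the adjusted p alone (0%, 0.0893% and 0.732%), with 6, 9 and 0 members higher at unadjusted p under 0.05 in limma. No member's BMS effect differed between 48 and 12 h by the test (0.0893% of all genes did), and 1 did without replicate 1 of the BMS cells at 48 h.

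Some other genes also differed between the 2 BMS libraries at 48 h. FOXF1, a mesodermal transcription factor, was at 43.6 and 75.8 TPM with BMS and 14.0 and 7.59 TPM without at 48 h (log2 difference 2.36 ± 0.32, adjusted p = 5.04e-06). Replicate 2 was the higher of the BMS pair, as it was for HOXB2, HOXB5 and HOXB6. For HOXB3, HOXA10 and HOXA11 replicate 1 was the higher. Of the 8 lateral and extraembryonic mesoderm genes, 2 were called higher at 48 h (0.125% of all genes) and 4 were higher by adjusted p alone (2.87%). The summed TPM of the 8 was 2426 and 2512 with BMS and 1398 and 1471 without. TBXT, a mesodermal T-box factor, was at 269 and 71.2 TPM with BMS and 149 and 220 TPM without. The part of this spread in the HOX values was not tested.

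**Figure D4:**
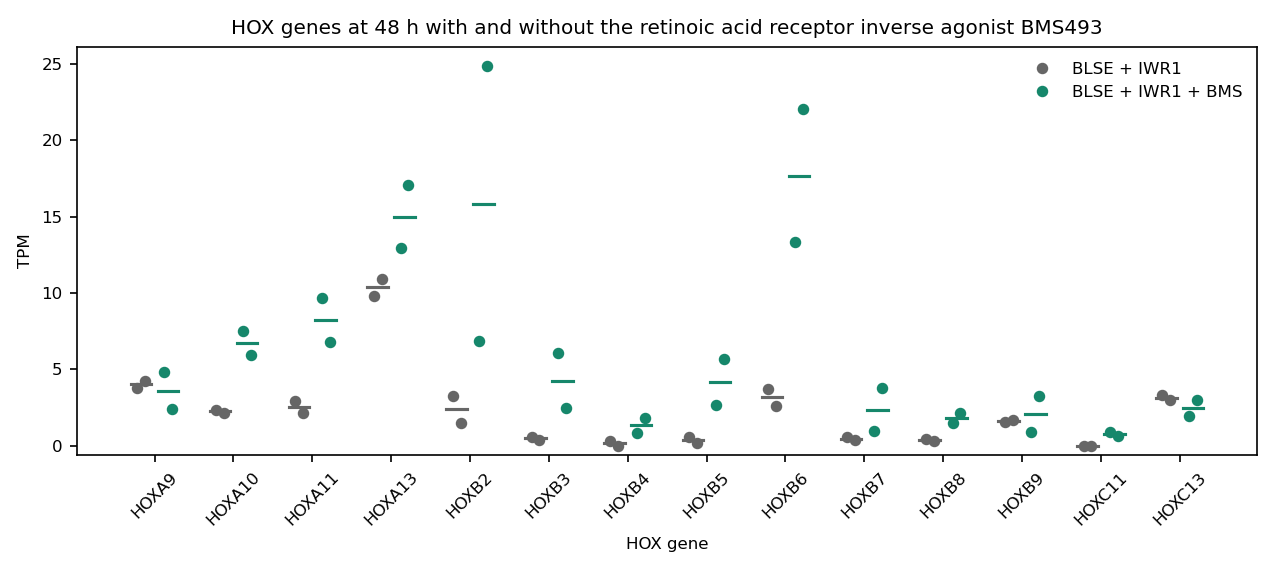
TPM of 14 HOX genes at 48 h in BLSE + IWR1 (grey) and BLSE + IWR1 + BMS (green); points are the 2 libraries of each condition and short lines their mean. HOXB2 and HOXB6 lie highest with BMS, HOXB2 with libraries at 6.84 and 24.9 TPM, and HOXA9 and HOXC13 overlap between the conditions.

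In sorted day 6 PGCLCs and in xrOvaries the clusters were close to silent at first. No member exceeded 0.92 TPM in a day 6 library or 0.88 TPM in a day 20 library, and 18 and 25 of the 30 members were listed at 0 in both libraries. Fewer genes of any kind were detected on day 20, where replicates 1 and 2 had 11441 and 10146 genes above 0, the latter the fewest of all libraries. Day 6 had 11776 and 12044, and day 40 had 11627 and 11716. The day 20 replicates also correlated least (r = 0.977), so values of 0 on day 20 are weak evidence of absence. No member was called at day 6 against BLSE + IWR1 at 96 h (0.161% of all genes were) or at day 20 against day 6 (2.3%), and at unadjusted p under 0.05 limma had 1 member lower in each. None passed the adjusted p alone in either case (2.75% and 20.4% of all genes).

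HOXA4 then appeared. This gene, listed at 0 in both libraries on days 6 and 20, was at 2.97 and 2.7 TPM on day 40 and 9.18 and 9.55 TPM on day 70 (log2 difference from day 40 1.44 ± 0.27, adjusted p = 5.56e-04), its highest level in the series. It passed the adjusted p from day 40 to day 70 at a size below the 4-fold criterion, and no longer did so without replicate 2 of either day. HOXA7, at 3.23 and 1.06 TPM on day 40, passed the test against day 20 with an adjusted p of 0.0075, lost without either day 20 library or replicate 1 of day 40, and also within the one line. On day 70 HOXA2 was at 1.56 and 0.46 TPM, HOXA3 at 0.73 and 0.52 TPM, and HOXA5 was listed at 0. Step by step, no member was called at day 40 or 70 (0.205% and 0.214% of all genes were, and 4 and 5 members were higher at unadjusted p under 0.05), and 3 and 2 were higher by adjusted p alone (1.15% and 0.768%). From day 20 to day 70, a comparison added after the data were seen, 2 members were called higher (0.366% of all genes), HOXA4 among them, and 3 members were higher by adjusted p alone (3.89%). Comparisons with day 20 carry the limit of detection on that day given above. From a list of 9 genes of gonadal somatic cells, 7 were measured, WT1 and GATA4 not among them, and 4 passed the filter. On days 40 and 70, 3 and 4 of the 7 were listed at 0 in both libraries, NR5A1 and NR2F2 among them. The summed TPM of the 7 was 0.78 and 8.01 on day 20, 1.02 and 0.99 on day 40 and 0 and 0.63 on day 70. The part of these cells in the HOX values was not tested.

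**Figure D5:**
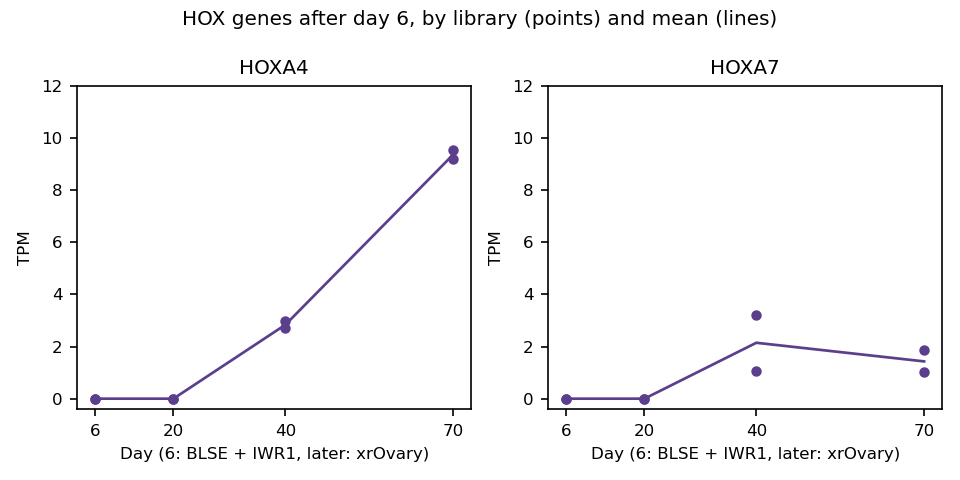
TPM of HOXA4 and HOXA7 by day, in BLSE + IWR1 cells of day 6 and in tdTomato-positive cells of xrOvaries on days 20, 40 and 70; points are the 2 libraries and lines join their means. HOXA4 lies at 0 to day 20 and at 9.18 and 9.55 TPM on day 70, while HOXA7 stays at or below 3.23 TPM.

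Genes known to act upstream of the clusters were read from lists. Of the CDX, ParaHox and posterior factors, 10 of 12 were in the table and 7 were tested. CDX2, a direct activator of central and posterior HOX genes, was at 3.69 and 9.06 TPM in cjESCs in DK20FA, 21.0 and 21.5 TPM in BLSE at 12 h and 62.7 and 55.2 TPM at 96 h (log2 difference 3.12 ± 0.42, adjusted p = 1.16e-07). EVX1, the homeobox gene that neighbours HOXA13, rose from 24.7 and 25.4 TPM to 175 and 163 TPM at 48 h. CDX1 fell from 179 and 136 TPM to 0.72 and 2.38 TPM at 96 h, and TBXT from 435 and 404 TPM to a listed 0 in both libraries. In BLSE at 96 h CDX2 and EVX1 were thus called higher and CDX1 and TBXT lower, and in SOX17 + BLSE at 96 h against BLSE CDX1 and TBXT were called higher and CDX2 and EVX1 lower.

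Of the retinoic acid genes, 16 of 18 were in the table and 13 were tested. CRABP2, which carries retinoic acid to its receptors, was at 290 and 769 TPM in cjESCs in DK20FA and was called higher in BLSE at 48 h, at 1771 and 2061 TPM (log2 difference 2.01 ± 0.36, adjusted p = 3.32e-05). RARB, a receptor gene that is itself a retinoic acid target, rose from 1.36 and 1.35 TPM to 6.88 and 5.72 TPM at 96 h. CYP26A1, which degrades retinoic acid, was at 368 and 495 TPM in BLSE at 96 h and at 5.73 and 14.5 TPM in SOX17 + BLSE (log2 difference -5.39 ± 0.39, adjusted p = 2.27e-14). With BMS at 48 h no gene of this list was called, and by adjusted p alone DHRS3, a retinaldehyde reductase induced by retinoic acid, was lower, at 18.4 and 27.4 TPM against 48.3 and 57.5 TPM, and the enzyme genes ALDH1A3 and RDH10 were higher.

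Of the TALE cofactors, which bind DNA together with HOX proteins, 5 of 9 were in the table and all 5 were tested. No gene of this list was called in BLSE at any time. MEIS2 was listed at 0 in cjESCs in DK20FA and reached 2.42 and 2.59 TPM in BLSE at 96 h. Of the 24 Polycomb and trithorax genes, 18 were tested. JARID2, a Polycomb cofactor, was the 1 called lower in BLSE at 48 and at 96 h. By adjusted p alone 5 were higher (12.4% of all genes were) and 3 lower at 96 h. Mesodermal genes rose with the members in BLSE: 4 of 8 were called higher at 96 h (2.82% of all genes were). Among them were TBX4, a hindlimb and allantois T-box factor, at 233 and 293 TPM against 1 and 1.89 TPM, and PITX1, a hindlimb homeobox factor, at 182 and 196 TPM against 0.90 and 0 TPM. HAND1, an extraembryonic and lateral mesoderm factor, was already at 259 and 426 TPM in cjESCs. It was higher by adjusted p in BLSE at 12, 24, 48 and 96 h.

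As a description, the genes outside the clusters whose condition means of log2(TPM + 1) ran most like a member were listed over the 27 conditions, which share cell lines and culture steps. HOXA10 was most like RNASE6 (Pearson r = 0.951), SLCO2A1 (0.949) and AKR1C1 (0.944), and HOXA11 most like AKR1C1 (0.957), PPIC (0.929) and SYNPO (0.927). HOXB2 was most like TBX2 (0.938), PLEKHA6 (0.929) and ADAMTS13 (0.923). Within the clusters HOXA10 ran closest to HOXA9 (0.981), HOXA11 (0.979) and HOXB6 (0.961), and HOXB2 closest to HOXB5 (0.906), HOXB3 (0.880) and HOXA13 (0.821).

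The 4 members below the filter had low values in all libraries. HOXA3 reached at most 0.84 TPM, HOXB1 0.90 TPM and HOXC12 0.15 TPM. HOXC5 reached 1.46 TPM, in replicate 1 of cjESCs in PESFA, and 0.88 TPM in replicate 1 of the pre-treated cells.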

How the data were processed

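RNA of sorted or unsorted cells was sequenced as poly(A)-selected, strand-specific libraries. According to the methods and the labels, the authors aligned reads with STAR to the marmoset genome, estimated expression with RSEM and deposited TPM for genes shared by marmoset and human. No counts or depths were used, so no count model or counting interval was possible. TPM of 54 libraries (27 conditions, 2 replicates each) were analysed as log2(TPM + 1) with limma 3.58.1 in R 4.3.3 (one mean per condition, trended variance, 27 residual degrees of freedom), after keeping the 11197 of 14812 genes at 1.5 or more in at least 1 library. Benjamini-Hochberg adjustment covered all genes tested. Fold changes on this scale understate changes of low genes. Calls used the fold, adjusted p and level criteria given in the text. The test was tried on simulated data first. The members, gene lists and comparisons were chosen with earlier results of these data known. All members could be named, with full values for those called and for the highest of each cluster, except that some genes are not reported here. Replicates are described as biological duplicates, and p-values reflect the spread between these samples. Alternatives were another scaling, pseudocount 0.1, no filter, a replicate block, fits within one line and leaving out each library.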

Additional observations from a re-analysis of the deposited data

Results flagged for a closer look

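For 7 member genes, the effect of a factor at 48 h differed from its effect at 12 h by a test of the difference itself in limma (adjusted p under 0.01 over all genes, passed by 2.46% of all genes for SOX17 and 1.26% for BMP4). For SOX17 + BLSE against BLSE the log2 effect at 48 h minus that at 12 h was -1.75 ± 0.43 (SE) for HOXA5, -2.54 ± 0.50 for HOXA6, -1.61 ± 0.38 for HOXA11, -2.18 ± 0.46 for HOXB5, -1.80 ± 0.41 for HOXB6 and -2.46 ± 0.35 for HOXC11, with adjusted p from 1.88e-05 (HOXC11) to 0.00962 (HOXA5). HOXA5, HOXA6 and HOXB5 had log2 effects of 0.25, 0.49 and 0.14 at 12 h that did not pass the test, and negative ones of -1.50, -2.04 and -2.03 at 48 h. For BMP4, HOXC13 had a difference of 2.10 ± 0.44 (adjusted p = 0.00325), from a log2 effect of 0.64 at 12 h to 2.74 at 48 h. These counts rest on single libraries: the 6 SOX17 differences became 1 without replicate 1 of BLSE at 12 h, replicate 2 of BLSE at 48 h or replicate 2 of SOX17 + BLSE at 48 h, and 2 without replicate 1 of BLSE at 48 h or either SOX17 + BLSE library at 12 h. The BMP4 difference was lost without replicate 1 of SOX17 + BLSE at 12 h, replicate 2 of SOX17 + BLSE at 48 h or any SOX17 + LSE library of 12 or 48 h. For BMS no member passed (0.0893% of all genes did).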

How the results depend on the processing

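Depth is unknown and n was 2, so absence of a call does not show equal levels. None of the 283 fold changes that passed the adjusted p reversed under any alternative. With median-ratio scaling 1 lost significance, with no filter 7, with pseudocount 0.1 48 of 283, within one line 11 of 194, and with 1 library left out 166 of 1131. Median-ratio scaling moved the median of all genes by over 0.1 in SOX17 + BLSE against BLSE at 24 and 96 h (-0.11 and -0.24), SOX17 + BLSE and SOX17 + LSE at 96 h against cjESCs (-0.14 and -0.15), BLSE + IWR1 at 96 h against BLSE, pre-treated cells and 12 h (-0.20, -0.18 and -0.15) and day 70 against day 20 (0.13).

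With the replicate block 1 difference no longer passed the adjusted p, that of HOXC13 in SOX17 + BLSE against SOX17 + LSE at 24 h (log2 difference 1.26, adjusted p = 0.0103 in limma), and the block moved no count of called members by over 1.5 times, for example 14 in BLSE at 48 h and 5 for the SOX17 difference between times. Same-numbered libraries correlated in their deviations at r from -0.25 to 0.29, with 0.21 and 0.27 for SOX17 + BLSE against BLSE and 0.29 and 0.18 against SOX17 + LSE at 12 and 24 h. No label says that a number marks a shared batch or day, and with 2 replicates these values do not settle whether the numbers pair the samples.

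Pseudocount 0.1 gave 5 called members for SOX17 + BLSE at 48 h against cjESCs, 1 for SOX17 + LSE at 48 h, 2 for BLSE + IWR1 at 96 h against pre-treated cells and 0 for the SOX17 and BMP4 differences between times. The BMP4 difference was also 0 within one line. Set against BLSE + IWR1 at 12 h, 0 members were called at 48 and 96 h, and against day 20, 2 at day 70. By adjusted p alone the counts were 14 and 16 for BLSE at 12 and 24 h, 1, 5 and 15 for SOX17 at 12, 24 and 48 h, 7 and 8 for BMP4 at 24 and 48 h, 14 and 3 for SOX17 + BLSE and 5 and 2 for SOX17 + LSE at 48 and 96 h against cjESCs, 7 for BMS at 48 h, 17 and 17 for BLSE + IWR1 against BLSE at 12 and 24 h, 15 and 18 for BLSE + IWR1 at 48 and 96 h against pre-treated cells, 15 for PESFA against DK20FA, and 3 and 2 at days 40 and 70.

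With 1 library left out, where a lone library is assumed to vary like the others, counts ranged from 5 to 10 for BLSE at 24 h, 0 to 1 and 2 to 10 for SOX17 at 24 and 48 h, 0 to 2 for BMP4 at 48 h, 4 to 6 for SOX17 + BLSE and 0 to 1 for SOX17 + LSE at 48 h against cjESCs, 0 to 3 for BMS at 48 h, 6 to 13 for BLSE + IWR1 against BLSE at 24 h, 1 to 5 and 0 to 4 against pre-treated cells at 48 and 96 h, 2 to 9 for PESFA against DK20FA, 1 to 8 for the SOX17 difference between times, 0 to 1 for that of BMP4 and 0 to 1 for that of BMS.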
